A study of Mus musculus with 4 samples.

Results

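The collagen family was followed across livers that lacked NIPP1 and control livers, with attention to Col5a3, the gene of a minor fibrillar collagen chain. Its members were all probes of the arrays that are no controls and whose gene name is Col, a number, the letter a and a number. This gave 68 probes of 43 genes, out of 39429 probes with 30175 different gene names. All 43 symbols are in the current RefSeq gene table.

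Total liver RNA came from 8 different male mice of a mixed strain, 2 months old and untreated. In 4 of them NIPP1 had been knocked out conditionally in the liver, and the other 4 were controls. NIPP1, encoded by Ppp1r8, is a nuclear subunit of protein phosphatase 1. Each of 4 Agilent 4x44K arrays carried 1 knockout mouse and 1 control mouse in different dyes, with the knockout in Cy3 on replicates 1 and 2 and in Cy5 on replicates 3 and 4. The sources used here name neither the Cre line, nor the deleted exons, nor the alleles of the controls. The share of spots detected per array and dye ran from 52.7% to 56.3%, and the number of arrays limits the precision.

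Collagens are secreted proteins in which 3 chains wind into a helix, with glycine recurring at regular steps along each chain. Fibrillar types build cable-like fibrils, type IV builds the sheet-like network of basement membranes, type VI builds beaded filaments, and other classes sit on fibril surfaces or anchor cells. In the liver most fibrillar collagen is made by stellate cells and portal fibroblasts, and scarring raises types I and III. Type V is a minor partner of type I fibrils, and its alpha 3 chain, encoded by Col5a3, assembles with the products of Col5a1 and Col5a2.

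Col5a3 had more signal in the knockout than in the control on each array, and it had the highest log2 ratio of all 20830 probes tested. Values below are log2 knockout over control after background correction and loess normalization within each array, unless a level is named. Col5a3 was read by 1 probe on the minus strand at chromosome 9, 20574592 to 20574651, on mm9. Its log2 intensities were 11.51, 11.58, 11.80 and 11.39 in the knockout mice of replicates 1 to 4, and 9.09, 9.07, 9.07 and 9.31 in the controls. The lowest knockout lay above the highest control, so the groups did not overlap. The log2 ratios were 2.42, 2.51, 2.73 and 2.08, and the fit over the 4 arrays gave 2.44 ± 0.12 (SE), or 5.41-fold (limma adjusted p 0.0481). All 8 mice were well above background for this probe.

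Col27a1 and Col4a5 were also higher in the knockout on all 4 arrays, by smaller amounts. Col27a1 encodes the chain of a fibrillar collagen known from cartilage, and Col4a5 encodes a basement membrane chain whose mutations cause Alport disease of the kidney. Col27a1, probed at chromosome 4, 62995485 to 62995544, had log2 intensities of 9.47, 9.46, 9.30 and 9.57 in knockouts and 8.46, 8.72, 8.44 and 8.57 in controls. Its log2 ratios of 1.01, 0.74, 0.85 and 0.996 gave a fit of 0.90 ± 0.068 (SE, 1.87-fold, limma adjusted p 0.0522). Col4a5, probed at chromosome X, 138123547 to 138123606, had log2 intensities of 7.91, 7.70, 8.16 and 8.09 in knockouts and 6.84, 6.99, 7.01 and 6.85 in controls. Its log2 ratios of 1.07, 0.71, 1.15 and 1.24 gave a fit of 1.04 ± 0.078 (SE, 2.06-fold, limma adjusted p 0.0522). For both genes every knockout mouse lay above every control mouse. Both missed the threshold of 0.05 on the adjusted p, which is taken over all probes tested.

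The call of Col5a3 stands close to that threshold. It was lost with the processed signals of the scanner software (limma adjusted p 0.0575), with background parameters fitted on every spot (0.0529), with 1 probe a gene (0.0534) and without any 1 of the arrays (0.0747 to 0.22). Over the 14 alternatives its log2 ratio stayed between 2.27 and 2.60, and its adjusted p ranged from 0.000119 to 0.22. It had the highest ratio of all probes tested under 9 of the 14, was 12th with the processed signals and 2nd or 3rd with 1 array left out.

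**Figure D1:**
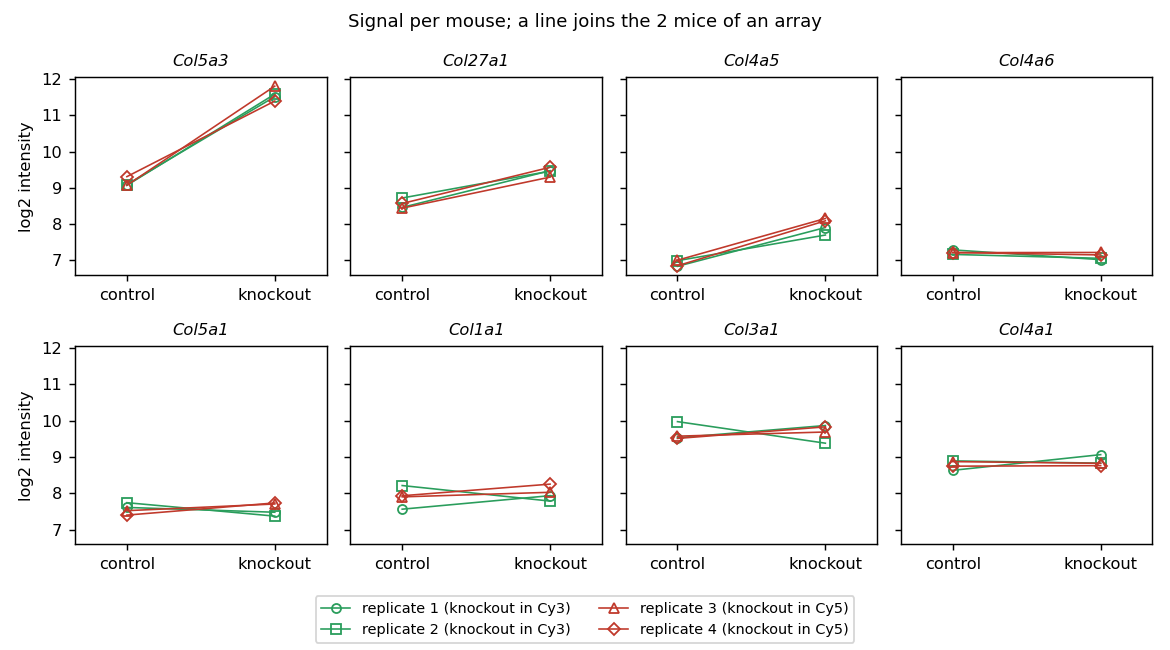
Log2 intensity (vertical axis) of 8 collagen genes in control and knockout mice, where a line joins the 2 mice of 1 array and colour gives the dye of the knockout RNA. For Col5a3, Col27a1 and Col4a5 all 4 knockout mice lie above all 4 controls, whereas the groups overlap for Col4a6, Col5a1, Col1a1, Col3a1 and Col4a1. Levels are not compared between genes, since each gene has its own probe.

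Since these 3 genes were higher on every array, the sequences around their starts are shown, with that of Col4a6, the neighbour that is read away from Col4a5. Each runs 5′ to 3′ from 250 bases before the start to 50 after it, from RefSeq on GRCm38.p6. Capitals mark matches, on either strand, to the NF-Y motif CCAAT, to the Sp factor motif or GC box, spelled GGGCGG, and to the motif of the basal machinery, spelled TATAAA. No matches overlap. Col5a3 lies at chr9:20815018-20815317 on the minus strand, Col27a1 at chr4:63215162-63215461 on the plus strand, Col4a5 at chrX:141475169-141475468 on the plus strand and Col4a6 at chrX:141474027-141474326 on the minus strand.
Col5a3: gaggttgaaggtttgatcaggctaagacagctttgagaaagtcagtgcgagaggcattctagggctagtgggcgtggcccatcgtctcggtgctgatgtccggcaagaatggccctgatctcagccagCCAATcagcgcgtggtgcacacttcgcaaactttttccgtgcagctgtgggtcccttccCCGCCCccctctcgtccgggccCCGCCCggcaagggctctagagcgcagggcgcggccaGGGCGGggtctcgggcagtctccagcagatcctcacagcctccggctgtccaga
Col27a1: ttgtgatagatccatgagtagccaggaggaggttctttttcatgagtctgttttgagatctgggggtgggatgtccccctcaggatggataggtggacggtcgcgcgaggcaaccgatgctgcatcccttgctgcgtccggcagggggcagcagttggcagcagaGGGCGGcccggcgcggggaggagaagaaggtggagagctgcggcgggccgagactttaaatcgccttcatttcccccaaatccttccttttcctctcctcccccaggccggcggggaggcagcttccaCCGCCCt
Col4a5: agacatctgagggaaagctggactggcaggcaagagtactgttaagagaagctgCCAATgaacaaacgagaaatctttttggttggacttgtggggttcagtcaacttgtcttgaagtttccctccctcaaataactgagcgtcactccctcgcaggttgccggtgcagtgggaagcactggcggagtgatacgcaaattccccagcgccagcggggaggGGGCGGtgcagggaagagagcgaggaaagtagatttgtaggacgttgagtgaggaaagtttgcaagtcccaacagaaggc
Col4a6: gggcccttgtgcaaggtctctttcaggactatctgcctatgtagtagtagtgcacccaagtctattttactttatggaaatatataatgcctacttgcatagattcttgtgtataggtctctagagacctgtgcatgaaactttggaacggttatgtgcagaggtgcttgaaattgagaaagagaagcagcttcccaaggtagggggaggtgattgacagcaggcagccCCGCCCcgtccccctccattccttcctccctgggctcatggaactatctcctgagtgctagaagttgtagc

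The promoter of Col5a3 held 3 GC boxes, whose first bases lie 63, 41 and 4 bases before the start, and 1 CCAAT 122 bases before it. That of Col27a1 held 2 GC boxes and no CCAAT, that of Col4a5 1 of each, and that of Col4a6 1 GC box. None of the 4 held TATAAA. Over all 32851 promoters of the table, 35.7% held GGGCGG, 37.4% held CCAAT and 13.6% held TATAAA. Of the 38 collagen promoters in it, of 35 genes, 23 held GGGCGG, 13 held CCAAT and 5 held TATAAA. GC content was 63.3% for Col5a3, 61.7% for Col27a1, 52.7% for Col4a5 and 48.3% for Col4a6, against a median of 52.7% over all promoters. A match describes the letters only.

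Many collagen genes gave too little signal to be compared. Testing asked for detection, meaning a signal well above background, in 3 or more mice of a genotype. Of the 43 genes, 22 met this through 26 probes. For 16 genes no probe was well above background in any mouse, and 5 genes were detected in some mice without meeting the rule. By probe, 23 of 68 were well above background in all 8 mice and 37 in none. Col5a2, the third chain of type V collagen, was not well above background in any mouse. The 3 probes of Col15a1, a basement membrane zone collagen, were likewise not well above background. In 3 genes the best detected probe was seen in more knockout than control mice. Col12a1, a collagen of fibril surfaces, was well above background in 2 knockout mice and no control on 1 of its 2 probes. Its mean log2 intensities there were 6.42 and 6.34, with the genotypes overlapping and log2 ratios of 0.09, -0.001, 0.06 and 0.17. This probe was not tested. Col6a5 was well above background in 3 knockouts and 2 controls, and Col13a1 in 4 and 3.

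**Figure D2:**
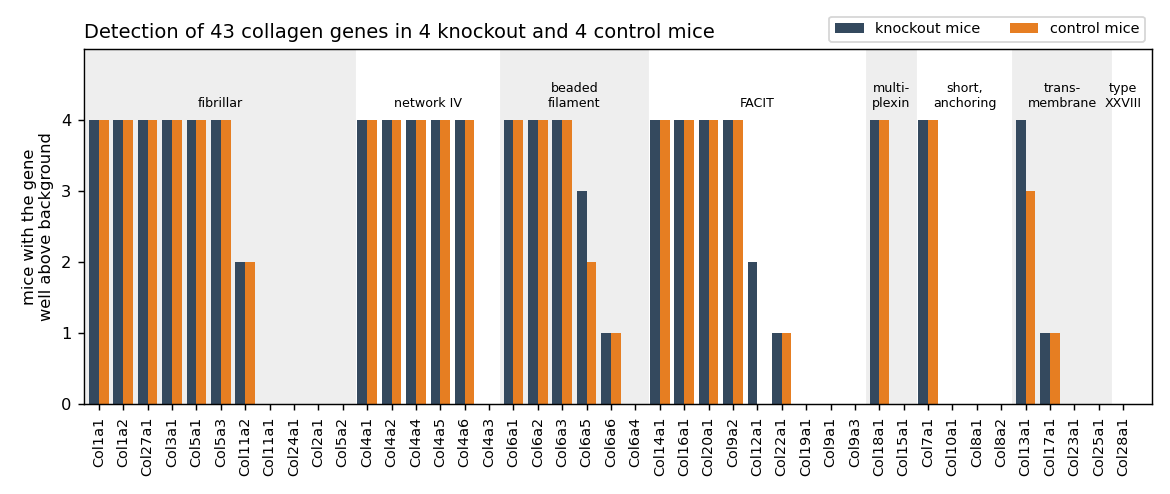
Number of knockout and control mice (vertical axis, out of 4 each) in which the best detected probe of each of 43 collagen genes was well above background, by class. Col5a3 is among the genes detected in all 8 mice, and Col5a2 among the 16 detected in none.

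The calls in the family were set beside the shares among all probes tested. The limma adjusted p was under 0.05 for 1 of the 26 collagen probes, that of Col5a3, against 0.173% of all probes tested. It was under 0.1 for 3 of 26, those of Col5a3, Col27a1 and Col4a5, against 6.73%. The same 3 probes were the collagen probes higher in the knockout on all 4 arrays, against 13.4% of all probes, and the ones with every knockout mouse above every control, against 7.12%. None of the 26 was lower on all 4 arrays, against 11.1%, or had every knockout below every control, against 5.2%. At an unadjusted p under 0.05, 3 collagen probes were higher, against 12.9%, and 2 were lower, against 10.3%. The median fitted log2 ratio over the 22 genes, each by its brightest probe, was 0.038, with 15 above 0 and 7 below. Over all probes tested 10406 lay above 0 and 10424 below.

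Among the fibrillar collagens, the major chains of liver scar tissue had fits near 0. Col1a1, which encodes the alpha 1 chain of type I collagen, had log2 ratios of 0.37, -0.43, 0.13 and 0.32 on replicates 1 to 4 (fit 0.10 ± 0.15, limma adjusted p 0.73). Its partner Col1a2 had 0.28, -0.53, -0.03 and 0.21 (fit -0.02 ± 0.15), and Col3a1, the chain of type III collagen, had 0.34, -0.59, 0.11 and 0.32 (fit 0.04 ± 0.17). On all 3 genes replicate 2 was the lowest array and replicate 1 the highest. Col5a1, the chain that joins Col5a3 in type V molecules, had -0.13, -0.37, 0.18 and 0.34 (fit 0.004 ± 0.066, limma adjusted p 0.976). Its arrays were below 0 where the knockout was in Cy3 and above 0 where it was in Cy5, so dye and mice cannot be told apart in that split. In all of these genes the 2 genotypes overlapped. Of the 11 fibrillar genes, 6 were tested, and Col11a2 was detected in 2 mice of each genotype.

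Col5a3 exceeded each class of collagens on every array. Above the median of the 5 other fibrillar genes it stood by 2.08, 2.94, 2.61 and 1.76, a mean of 2.35 ± 0.53 (SD, n = 4, exact sign-flip test over arrays, two-sided p 0.125). Against the 5 network collagens the difference was 2.32 ± 0.34, and against the 11 genes of neither class it was 2.45 ± 0.33 (SD, n = 4). Against Col5a1 it was 2.43 ± 0.48, and against Col27a1, the fibrillar gene with the next highest fit on these arrays, 1.54 ± 0.36 (SD, n = 4). Including the difference from all 21 other genes, 2.38 ± 0.33, 6 such comparisons were made. All 6 had the same sign on 4 of 4 arrays. Each had an exact sign-flip p of 0.125, also after Benjamini-Hochberg adjustment, which is the smallest p that 4 arrays allow. Col5a3 was chosen with earlier results of these data known, so these p-values are no independent test of its difference from the others. The highest of the other 21 genes reached 1.07, 0.74, 1.15 and 1.24 on the 4 arrays, below Col5a3 each time.

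**Figure D3:**
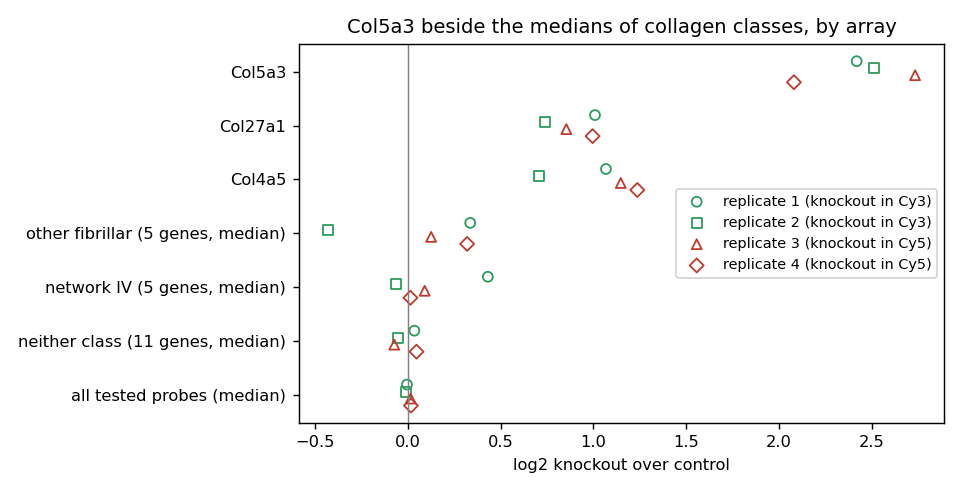
Log2 knockout over control (horizontal axis) on each of the 4 arrays for Col5a3, Col27a1 and Col4a5, and for the medians of the 5 other fibrillar genes, the 5 network genes of type IV, the 11 genes of neither class and all probes tested. The points of Col5a3 lie between 2.08 and 2.73, and the highest class median on any array is 0.43, that of the network genes on replicate 1.

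Among the type IV chains, Col4a5 had the highest ratio and the others had fits between -0.11 and 0.26. Col4a1 and Col4a2 encode the chains of the common network of vessel walls and sinusoids. Col4a1, on 10 spots of 1 probe, had 0.43, -0.06, -0.05 and 0.01 (fit 0.08 ± 0.096), and Col4a2 had 0.86, -0.05, 0.22 and -0.01 (fit 0.26 ± 0.17, limma adjusted p 0.418). Both were highest on replicate 1 and near or below 0 on replicates 2 and 4. Col4a4 had a fit of 0.02 ± 0.046, and Col4a3, its partner with Col4a5 in kidney membranes, was not well above background in any mouse. Col4a6 starts 1343 bases from Col4a5 and is read the other way. Its log2 ratios were -0.27, -0.11, 0.004 and -0.07 (fit -0.11 ± 0.054, limma adjusted p 0.307). The difference between Col4a5 and Col4a6 was 1.15 ± 0.24 (SD, n = 4), given with no test because Col4a5 was named for its sign on these arrays. With the processed signals, which carry no offset, the log2 ratio of Col4a5 was 1.80, and over the 14 alternatives its adjusted p ranged from 0.00069 to 0.22.

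Most beaded filament and fibril surface collagens had fits near 0, and none passed the test. Col6a1, Col6a2 and Col6a3, the chains of the common type VI molecule, had fits of -0.06 ± 0.064, -0.08 ± 0.063 and 0.07 ± 0.090. Their single arrays ran from -0.42 to 0.39. Col6a1 was below 0 where the knockout was in Cy3 and above 0 where it was in Cy5, so dye and mice cannot be told apart there. Col14a1, which binds fibrils of type I, gave 0.05 ± 0.098 and 0.02 ± 0.085 on its 2 probes, and Col16a1 gave 0.11 ± 0.084 and 0.06 ± 0.074 on its tested ones. Col9a2, at an average log2 intensity of 6.865, varied least, with log2 ratios between -0.01 and 0.06. With the processed signals, which carry no offset, its ratios ran from -0.15 to 0.18. On that scale the dim Col6a5 had -0.34, against a fit of -0.04 as reported. Col6a1, Col6a2 and Col6a3 had -0.10, -0.11 and 0.06 there.

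Col20a1, a little studied collagen of the fibril surface class, was the member with the lowest fit. Its brighter probe had 0.08, -0.05, -0.40 and -0.82 on replicates 1 to 4 (fit -0.30 ± 0.088, limma adjusted p 0.156), and its other probe 0.08, 0.01, -0.61 and -0.98 (fit -0.37 ± 0.077, adjusted p 0.102). Both probes were near 0 where the knockout was in Cy3 and below 0 where it was in Cy5. The 2 orientations hold different mice, so dye and animal cannot be told apart here.

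Col18a1, the source of the endostatin fragment and a collagen made by hepatocytes, was read by 2 probes that differed in sign. The brighter one had -0.08, -0.06, 0.17 and 0.33 (fit 0.09 ± 0.053), and the other had -0.46, -0.16, -0.22 and 0.002 (fit -0.21 ± 0.077, limma adjusted p 0.215). It was the only 1 of the 4 genes with several tested probes whose probes disagreed in sign. Col7a1, the anchoring fibril collagen of skin, had a fit of -0.09 ± 0.070, and Col13a1, a transmembrane collagen, 0.03 ± 0.054. Neither passed the test.

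**Figure D4:**
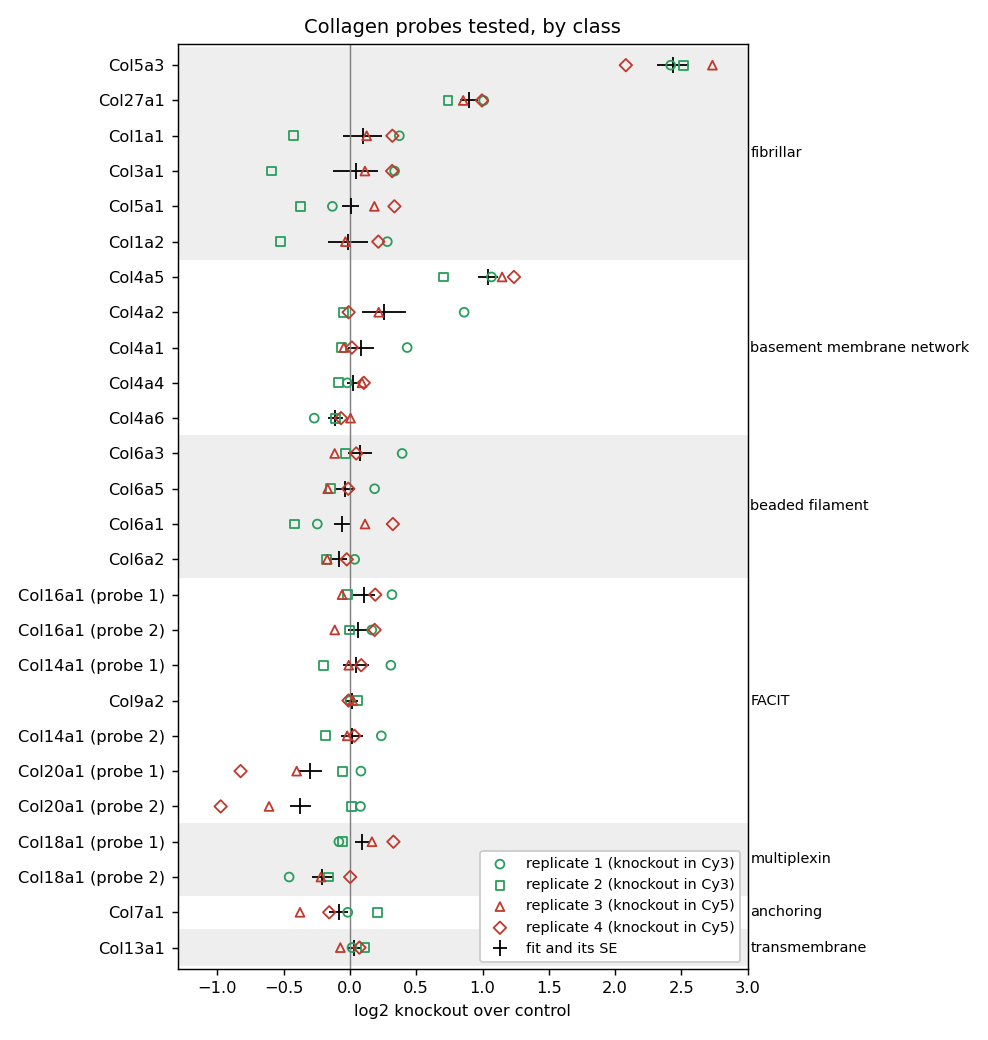
Log2 knockout over control (horizontal axis) of the 26 collagen probes tested, with 1 point per array, coloured by the dye of the knockout RNA, and a black cross for the fit with its SE. Col5a3, Col27a1 and Col4a5 lie to the right of 0 on every array. The points of Col20a1 separate by dye, and so do those of other genes, among them Col5a1, Col6a1 and Col4a4.

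The genes that make, bind, cut or induce collagen gave 0 calls at a limma adjusted p under 0.05, and 9 in a separate-channel fit, in which 17.6% of all probes passed. Of 78 genes in 4 lists 61 were tested, with 29 fits above 0, 32 below and a median of -0.005. At an adjusted p under 0.1, 3 were higher and 1 lower, which is close to the 6.73% of all probes. At an unadjusted p under 0.05 there were 6 in each direction, against 12.9% higher and 10.3% lower over all probes.

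Of the 26 tested genes for synthesis and processing, 14 lay above 0 and 12 below, with a median of 0.002, and none had an adjusted p under 0.1. Loxl4, a lysyl oxidase that crosslinks collagen, had 0.31, 0.29, 0.26 and 0.89 (fit 0.44 ± 0.12, limma adjusted p 0.135), and its mean was 1.07 with the processed signals. Colgalt2, which adds galactose to collagen, had 0.86, 0.72, 0.79 and -0.32 (fit 0.51 ± 0.19, adjusted p 0.223). Replicate 4 stood apart from the other arrays on both genes, in opposite directions. Pcolce2, an enhancer of procollagen cleavage, had a fit of -0.18 ± 0.096. P4ha1, a prolyl hydroxylase subunit, had 0.43, 0.28, -0.46 and -0.92 (fit -0.17 ± 0.093). Its arrays were above 0 where the knockout was in Cy3 and below 0 where it was in Cy5. Dye and mice cannot be told apart in that split, which the SE leaves out.

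Of the 15 tested receptors and binding partners, 6 lay above 0 and 9 below, with a median of -0.07. Nid2, which links type IV collagen to laminin, was lower on all 4 arrays, at -0.64, -0.98, -0.43 and -0.18 (fit -0.56 ± 0.083, limma adjusted p 0.0678), with a mean of -1.03 with the processed signals. Itgb1, the common chain of the collagen-binding integrins, had a fit of 0.17 ± 0.052 (adjusted p 0.17), and Sparc, a matrix glycoprotein, -0.18 ± 0.064 (adjusted p 0.201). Fn1, fibronectin, had -0.31, -0.45, 0.08 and 0.24 (fit -0.11 ± 0.057), a split by dye orientation in which dye and mice cannot be told apart.

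Of the 15 degradation genes only 7 were tested, with a median of 0.05. Mmp19, a secreted metalloproteinase, had 0.43, 0.32, 0.64 and 0.26 (fit 0.42 ± 0.080, limma adjusted p 0.0932). Mmp15, a membrane-bound one, had 0.62, 0.47, 0.18 and -0.005 (fit 0.31 ± 0.060, adjusted p 0.092). The inhibitor Timp3 had a fit of -0.19 ± 0.047 and the gelatinase Mmp2 -0.13 ± 0.047.

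Of the 13 tested fibrogenic signals 5 lay above 0 and 8 below, with a median of -0.03. Pdgfa, a growth factor for mesenchymal cells, was higher on all 4 arrays, at 0.49, 0.26, 0.97 and 0.54 (fit 0.56 ± 0.094, limma adjusted p 0.0769). The TGF-beta receptor gene Tgfbr2 had -0.11, 0.02, 0.45 and 0.68 (fit 0.26 ± 0.063), and Tgfbr1 had -0.35, -0.30, 0.02 and -0.01 (fit -0.16 ± 0.046). Smad4, the shared mediator of that pathway, had -0.74, -0.45, -0.02 and 0.25 (fit -0.24 ± 0.081). None of these had an adjusted p under 0.1. On each, the arrays with the knockout in Cy3 lay below those with it in Cy5, where dye and mice cannot be told apart. Tgfb1 itself had -0.03 ± 0.049, and this gene was named after its value was seen.

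**Figure D5:**
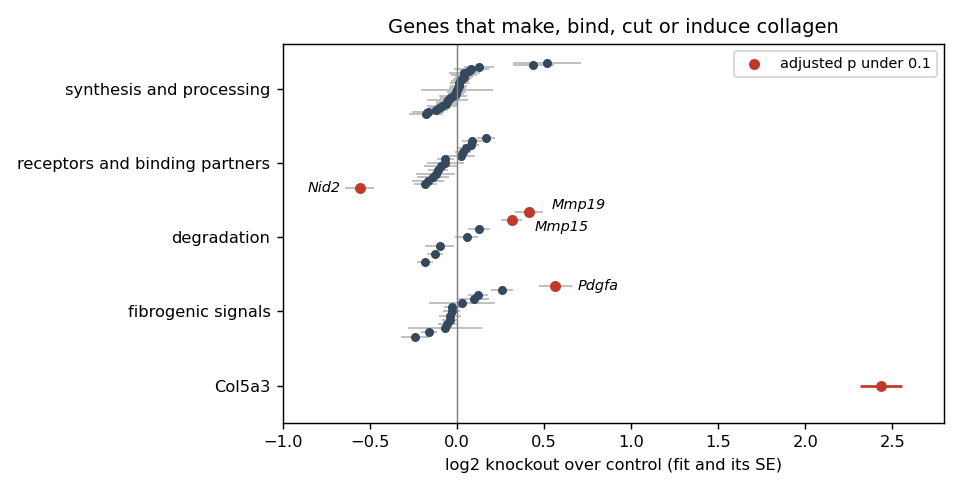
Fitted log2 knockout over control (horizontal axis) with its SE for the 61 tested genes of 4 lists, with Col5a3 for scale. Red points have a limma adjusted p under 0.1, which were Nid2, Mmp15, Mmp19 and Pdgfa among the lists.

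The genes beside Col5a3 on chromosome 9 were compared as well. Of the protein-coding genes near it in RefSeq order, Olfm2 and Rdh8, the nearest on either side, were not well above background in any mouse. Ubl5 had a fit of 0.03 ± 0.057 and Angptl6 0.07 ± 0.086. Shfl, an interferon-induced gene, had 0.62, 0.26, 0.76 and 0.89 (fit 0.63 ± 0.078, limma adjusted p 0.0583), with every knockout mouse above every control.

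In bulk liver, fewer cells of a type and less RNA per cell cannot be told apart, so the markers of other cells are given beside these results. Of 8 stellate cell markers 7 were tested, 1 above and 6 below 0, with a median of -0.04. Their summed intensity was 2240 to 2541 in knockouts and 2330 to 2518 in controls. The 4 tested myofibroblast and smooth muscle markers had a median of -0.03, with sums of 1469 to 1710 in knockouts and 1426 to 1873 in controls. Gfap, Myh11 and Eln, of the stellate, muscle and portal fibroblast lists, were not well above background in any mouse. The tested members of these lists were well above background in all 8 mice. The 3 tested portal fibroblast markers summed to 540 to 687 and 556 to 675. All 5 endothelial markers had fits below 0, with a median of -0.10 and sums of 6834 to 7835 in knockouts and 7409 to 8728 in controls. Of 5 macrophage markers 1 lay above 0 and 4 below, with a median of -0.11. Their sums were 9382 to 18727 in knockouts and 12248 to 14803 in controls.

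No biliary marker passed 0.05. Of 5 such markers 4 were higher in the knockout on all 4 arrays, against 13.4% of all probes tested. Among these 4, Epcam was well above background in 4 knockouts and 1 control, and Krt7 in 4 and 3. Epcam was thus tested only through the group where it was higher, so its place in that count carries no weight. The summed intensity of the 5 was 1206 to 1377 in knockouts and 852 to 1128 in controls. Krt19 had a fit of 0.64 ± 0.080 (limma adjusted p 0.0583) and Spp1 0.37 ± 0.056 (adjusted p 0.0694), Krt7 and Epcam had adjusted p of 0.297 and 0.387, and Sox9 had a fit of -0.21 ± 0.11. Their part in the values of Col5a3, Col27a1 and Col4a5 was not tested. Pancreatic acinar markers had medians of 3.77, -2.69, -0.17 and -1.24 on replicates 1 to 4, and Cfd of adipocytes had 1.66, -1.15, -2.23 and 0.15. The log2 ratio of Col5a3 lay between 2.08 and 2.73 on those arrays, and the part of acinar or fat tissue in it was not tested. The hepatocyte markers Alb, Apoa1, Ttr and Hnf4a were well above background in all 8 mice. Alb had -0.44, -0.24, 1.20 and 1.24 (fit 0.44 ± 0.056, limma adjusted p 0.0596), and Ttr -0.59, -0.70, 0.85 and 0.62 (fit 0.05 ± 0.062). The fits of Apoa1 and Hnf4a were -0.06 ± 0.046 and -0.09 ± 0.059. Alb and Ttr split by dye orientation, where dye and mice cannot be told apart, and Hnf4a split the other way. Sums over the 4 were 339752 to 493869 in knockouts and 293409 to 470428 in controls.

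The targeted gene was lower in the knockout on all 4 arrays on both of its probes. The brighter one had -0.60, -0.74, -0.74 and -0.63 (fit -0.68 ± 0.054, limma adjusted p 0.0522) and the other -0.66, -0.59, -0.59 and -0.75 (fit -0.65 ± 0.054, adjusted p 0.0522). With the processed signals their means were -1.33 and -1.22. Both were well above background in all 8 mice. Their place relative to the deletion is not known here, so they may not check it. Across probes, the ratios of array pairs correlated between -0.253 (replicates 1 and 4) and 0.532 (replicates 3 and 4), which are descriptions over probes and not independent measures.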

How the data were processed

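Per the file headers, the deposited files hold Agilent Feature Extraction 10.7.3.1 intensities per spot and dye (mean signal, local background, processed signal), on probes mapped to mm9, and a log10 ratio of the processed signals, which was left out of the tests. The authors' deposited value table is on a log2 scale, and its 43020 values per array all lay within 0.0001 of log2 knockout over control of the processed signals (column medians -0.051, 0.14, -0.179 and -0.184).

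Mean signals were background-corrected with normexp (offset 50). Its parameters were fitted on spots without a non-uniformity mark, since on replicate 1 the fit on every spot gave background means of -273 in Cy3 and -185 in Cy5. Ratios were normalized by loess within arrays with controls at weight 0, controls and outlier spots (194 to 230 per array, none of a collagen probe) were dropped, and repeated spots were averaged per probe. Testing asked for a signal well above background in 3 or more mice of a genotype. Probe positions are those of the files, and their place in exons or UTRs was not analysed here.

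The fit used limma 3.58.1 under R 4.3.3 with a dye intercept (2 residual degrees of freedom, 1 array as the unit) and Benjamini-Hochberg adjustment over 20830 probes. Its standard errors leave out differences between the dye orientations. The 4 arrays lay on 1 slide and were scanned together, so no batch term was used. Levels per mouse are log2 intensities after quantile normalization of the arrays' averages. Figures were drawn with matplotlib 3.10.9.

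The fit was run on ratios simulated with its own residual SDs and dye term, to check that known changes were recovered. Data drawn from the fitted model cannot show whether the calls hold on the real arrays. The members, the classes, the lists and the named genes were chosen with earlier results of these data known. Named were 15 collagen genes, any other tested collagen gene of 1 sign on all 4 arrays (Col4a5), up to 4 genes a list by unadjusted p, Ppp1r8 and neighbours of Col5a3. A gene that the rule names is not reported here. Other collagens were named where a sentence on their class needed them. Alternatives were processed signals, normexp on every spot, no background correction, an offset of 10, median centring, no dye term, no filter, a stricter filter, 1 probe a gene, each array left out and, added later, a separate-channel fit.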

Additional observations from a re-analysis of the deposited data

Results flagged for a closer look

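Of 43 named genes examined on the 4 arrays, 3 had 1 array far from the other arrays, and chance alone puts about 5% of genes there. For Col4a1, replicate 1 had a log2 knockout over control of 0.43, with the others between -0.06 and 0.01. For Loxl4, replicate 4 had 0.89, with the others between 0.26 and 0.31. For Colgalt2, replicate 4 had -0.32, with the others between 0.72 and 0.86. No cause was tested.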

How the results depend on the processing

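The direction of Col5a3 was kept under all 14 alternatives, but its call at a limma adjusted p under 0.05 was lost under 7 of them. The fit was 2.58 with processed signals, 2.32 with normexp fitted on every spot and 2.44 with 1 probe a gene, and between 2.27 and 2.60 with 1 array left out. Collagen probes past 0.05 numbered 1 in the reported fit. They numbered 0 with processed signals, normexp on every spot, 1 probe a gene and each array left out (0 to 0). They numbered 3 without background correction, with an offset of 10, with median centring, without the dye term, without the filter and with detection required in all 8 channels, and 4 with separate channels. Over all probes, 36 passed as reported, 10 with processed signals, 0 with normexp on every spot, 153 without background correction, 62 with an offset of 10 and 335 with median centring. Without the dye term 64 passed, without the filter 504, with detection in all 8 channels 185, with 1 probe a gene 0, with separate channels 3664 and with any 1 array left out 0 to 0. In the fit as reported, 2677 probes were higher and 2155 lower at an unadjusted p under 0.05. Pathway genes past 0.05 numbered 0 in all of these fits except that with separate channels, which gave 9. Col5a3 minus the median of the other fibrillar collagens ranged from 2.15 to 2.54. The other 21 tested collagen genes and Ppp1r8 gave 306 further values. Of these 21 came under 0.05 (7 each for Col27a1, Col4a5 and Ppp1r8), 15 had the other sign, in 9 genes with an adjusted p above 0.1 as reported, and 8 moved by at least the SD over arrays. With processed signals the last were Col4a5 (1.80), Ppp1r8 (-1.33), Col4a4 (0.18), Col4a6 (-0.23) and Col6a5 (-0.34). With an offset of 10 they were Col4a5 (1.41) and Ppp1r8 (-0.97), and with normexp on every spot Ppp1r8 (-0.57). The fit on array ratios already pairs the 2 mice of an array. Low signal limits the values of 21 genes that were not tested. The causes of these differences were not tested.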
